A study of Mus musculus with 9 samples.

Results

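Ventral hippocampus of exercised stressed mice was set against that of unstressed sedentary mice. The comparison takes 6 of the series' 9 libraries, 3 per group, chosen by their titles, and covers all 16106 expressed genes. The animals were wild-type C57BL/6J males, housed from the age of 8 weeks. The SED group (sedentary, no treatment) was left unstressed. The SUS_LE group, labelled stress-susceptible, was held in ventilated tubes 2 hours a day for 14 days and then ran on a treadmill at low intensity for 2 weeks. The other 3 libraries (SUS) come from stress-susceptible mice that had the same restraint and stayed sedentary. Restraint and exercise therefore both separate SUS_LE from SED, and their shares cannot be told apart in this comparison. How susceptibility was scored, the treadmill speed and the interval between the last run and dissection are not given in the sources used here. Each library carries the number of 1 mouse, and all carry the same batch number.

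The ventral hippocampus is the part of the hippocampus most closely tied to anxiety and stress regulation, and it sends output to the amygdala, hypothalamus and prefrontal cortex. Restraint activates the hypothalamic-pituitary-adrenal axis, whose glucocorticoids act back on hippocampal neurons through the receptors Nr3c1 and Nr3c2, and treadmill running is known to alter growth factors, synaptic genes and glial genes in the same tissue. The region borders the lateral ventricle, which holds the choroid plexus, the epithelium that secretes cerebrospinal fluid, and is lined by ependymal cells with motile cilia.

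Total counts ran from 14172344 to 15582304 per library, and levels are given in CPM, counts scaled to a common library size with TMM factors. Neuronal and hippocampal markers were present in all 6 libraries: Snap25, a synaptic vesicle fusion protein, stood between 2420 and 2670 CPM, Neurod6, a pyramidal neuron transcription factor, between 198 and 239, and Prox1, which marks dentate granule cells, between 88.9 and 118. Choroid plexus content set the libraries apart before any group comparison. The level of Ttr, transthyretin, which this epithelium secretes to carry thyroid hormone, was 4310, 3543 and 2935 CPM in SED 1 to 3 and 83.2, 1509 and 59.6 CPM in SUS_LE 1 to 3, so the groups did not overlap, and SUS_LE 1 and 3 were far below SUS_LE 2. The SUS libraries spanned both extremes, at 27.4, 2659 and 6085. In bulk tissue, fewer cells of a type and less RNA per cell cannot be told apart.

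No gene passed an adjusted p of 0.05 when SUS_LE was set against SED with the spread estimated from all 9 libraries (edgeR quasi-likelihood test, 0 of 16106 genes, 0%; smallest adjusted p = 0.317). At an unadjusted p under 0.05 there were 1070 genes (6.64%), of which 449 (2.79%) were higher and 621 (3.86%) lower in SUS_LE, where 805 would be passed by uniform p-values. DESeq2 on the same libraries called 16 genes (0.0993%), 2 higher and 14 lower, and limma voom called 0. All 3 SUS_LE values lay above all 3 SED values for 1214 genes (7.54%) and below for 1392 (8.64%). The median log2 fold change over all tested genes was 0.01, and 52.93% of genes had a positive value.

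The number of genes called depended on which libraries entered the fit. With only the 6 libraries of the 2 groups in the edgeR fit, 239 of 15767 genes passed (1.52%), 17 higher (0.108%) and 222 lower (1.41%) in SUS_LE. The common biological coefficient of variation was 0.0845 over 9 libraries and 0.0629 over 6. For the 239 genes, the median within-group SD of log2 CPM was 0.121 in SED, 0.15 in SUS_LE and 0.435 in SUS, against 0.102, 0.111 and 0.133 over all tested genes. Leaving out SUS 1 from the 9 gave 69 calls and leaving out SUS 3 gave 50, whereas leaving out SUS 2 gave 0. In the 6-library fit DESeq2 called 218 genes, 175 of them among the 239, and limma voom 222, 167 of them shared. The count was 93 without SED 1, 145 without SED 2, 128 without SUS_LE 1 and 342 without SUS_LE 2. Genes called only by DESeq2 or by the 6-library fit are named below for their values and were chosen after those were seen. In the paragraphs that follow, "called" refers to the 6-library fit, and every gene named had an adjusted p of at least 0.317 in edgeR over 9 libraries. A log2 fold change is given ± its standard error (SE) with the adjusted p of that 9-library edgeR fit, unless another is named.

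**Figure D1:**
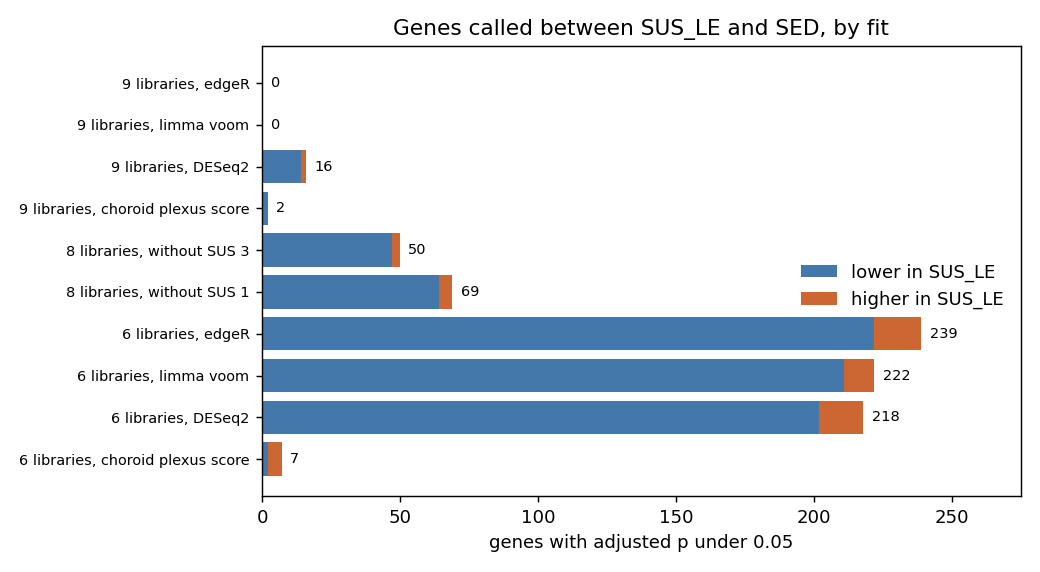
Number of genes with an adjusted p under 0.05 between SUS_LE and SED in 10 fits, as horizontal bars split into lower (blue) and higher (orange) in SUS_LE. The edgeR and limma voom fits of 9 libraries call 0 genes, the 3 fits of 6 libraries without a covariate call 218 to 239, and with a choroid plexus score as a covariate the 9-library fit calls 2 and the 6-library fit 7.

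Of the genes with higher values in exercised stressed mice, H2-D1 had the smallest p, followed by Doc2a and B2m; H2-D1 and B2m belong to MHC class I antigen presentation. MHC class I molecules display peptides at the cell surface, are assembled with the light chain B2m, and in brain are made by endothelium, microglia and some neurons. H2-D1, a class I heavy chain, stood at 18.9, 21.6 and 19.6 CPM in SUS_LE 1 to 3 against 12.8, 15.4 and 13.2 in SED 1 to 3. Every exercised mouse exceeded every sedentary one, and the log2 fold change was 0.54 ± 0.11 (adjusted p = 0.317). B2m stood at 74.1, 83.8 and 91.1 CPM in SUS_LE against 68.9, 64.8 and 63.7 in SED (log2 fold change 0.34 ± 0.08, adjusted p = 0.334). The groups did not overlap, and the gap between the lowest exercised and highest sedentary mouse was small. H2-K1, a second class I heavy chain, stood at 16.2, 15.8 and 14.8 CPM in SUS_LE against 12, 11.1 and 9.87 in SED (log2 fold change 0.51 ± 0.16, adjusted p = 0.598). These were the 3 of 17 class I genes called higher, against 0.108% of all genes. Their 6-library edgeR adjusted p was 0.00459 for H2-D1, 0.0139 for B2m and 0.014 for H2-K1. Over the alternatives to the 9-library edgeR fit, adjusted p ran from 0.0012 to 0.964 (H2-D1), 0.000282 to 0.964 (B2m) and 0.0116 to 0.964 (H2-K1). The upper end of each range came from the 9-library fit without SED 1. In SUS mice H2-D1 stood at 14.9, 13.3 and 16.2 CPM and B2m at 64.1, 61.3 and 72.4, inside or near the SED range, and H2-K1 spread from 9.79 to 17.5. Of 17 class I genes tested, 10 had higher and 7 lower values, with a median log2 fold change of 0.16 that came to 0.02 without SUS_LE 3. Class I genes are near-identical copies of each other, so reads may be divided between them and single-gene values are uncertain.

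Interferon-stimulated genes, which encode antiviral and antigen-processing proteins, had a higher median than any other of the 44 gene lists. Of 39 tested, 31 had higher values, 6 without overlap between groups (15.4%, against 7.54% of all genes), and 11 had an unadjusted p under 0.05 in that direction (28.2%, against 2.79%), with 1 in the other. The median log2 fold change was 0.34, and 1 member, B2m, was called higher (against 0.108% of all genes). Igtp, an immunity-related GTPase, stood at 3.29, 7.73 and 3.74 CPM in SUS_LE against 3.09, 2.59 and 1.49 in SED (log2 fold change 1.05 ± 0.34, adjusted p = 0.63), with SUS_LE 2 well above the rest. Gbp3, a guanylate-binding protein, stood at 5.41, 8.31 and 8.17 CPM against 5.69, 4.77 and 4.66, so that SUS_LE 1 lay within the SED range. Ifitm3, a membrane protein that blocks viral entry, stood at 11, 11.4 and 10.7 CPM against 9.2, 8.76 and 6.29 (log2 fold change 0.45 ± 0.15, adjusted p = 0.617). The mean log2 score of the list, centred over the 9 libraries, was 0.02, 0.20 and 0.50 in SUS_LE 1 to 3 and 0.04, −0.03 and −0.17 in SED 1 to 3, so the groups overlapped at SUS_LE 1. The median was 0.12 without SUS_LE 3 and 0.05 with SUS_LE 2 as the only exercised library. Markers of border macrophages and leukocytes, cells that also make class I and interferon-induced genes, leaned the same way: 11 of 12 had higher values (median 0.27), none was called, and their summed level was 31.51 to 37.1 CPM in SUS_LE against 26.43 to 31.03 in SED. Pf4, a chemokine of platelets and border macrophages, stood at 0.821, 0.909 and 0.817 CPM against 0.351, 0.28 and 0.676. The part of such cells in the class I values was not tested.

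The sequences upstream of these genes are shown because interferon acts through a short response element. The letters GAAA, any 2 bases and GAAA again, the core of the interferon-stimulated response element bound by IRF and STAT factors, were searched on both strands in the 250 bases before each gene's start. They occur in 978 of 32851 RefSeq promoters (2.98%). Counted by gene, with a match in any of a gene's promoters, they occur in 370 of 12182 tested genes with a RefSeq promoter (3.04%). By the same count they occur in 16 of 28 genes of the interferon list (57.1%) and in 3 of 15 of the class I list (20%). The stretches below, 120 bases each of the gene's own strand from RefSeq on GRCm38.p6, have the match in capitals, read as TTTC, 2 bases and TTTC where it lies on the other strand. They are chr2:122147528-122147647 for B2m, chr11:58199436-58199555 for Igtp, chr3:142559924-142560043 for Gbp3 and chr17:35262974-35263093 for H2-D1, all on the plus strand.
B2m: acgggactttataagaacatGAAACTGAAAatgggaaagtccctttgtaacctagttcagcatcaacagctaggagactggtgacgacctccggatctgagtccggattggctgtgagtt
Igtp: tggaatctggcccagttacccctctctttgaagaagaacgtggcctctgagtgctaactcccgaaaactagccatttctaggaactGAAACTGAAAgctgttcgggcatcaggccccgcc
Gbp3: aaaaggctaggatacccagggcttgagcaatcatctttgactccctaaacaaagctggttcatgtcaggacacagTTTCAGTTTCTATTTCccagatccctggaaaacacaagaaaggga
H2-D1: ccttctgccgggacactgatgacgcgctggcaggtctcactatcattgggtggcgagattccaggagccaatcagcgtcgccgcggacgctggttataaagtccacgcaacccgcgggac
B2m and Igtp hold 1 match each, Gbp3 holds overlapping matches, and H2-D1, the gene with the smallest p among those with higher values, has none of these letters in the 250 bases searched. A match describes the letters and is not a measured binding site.

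**Figure D2:**
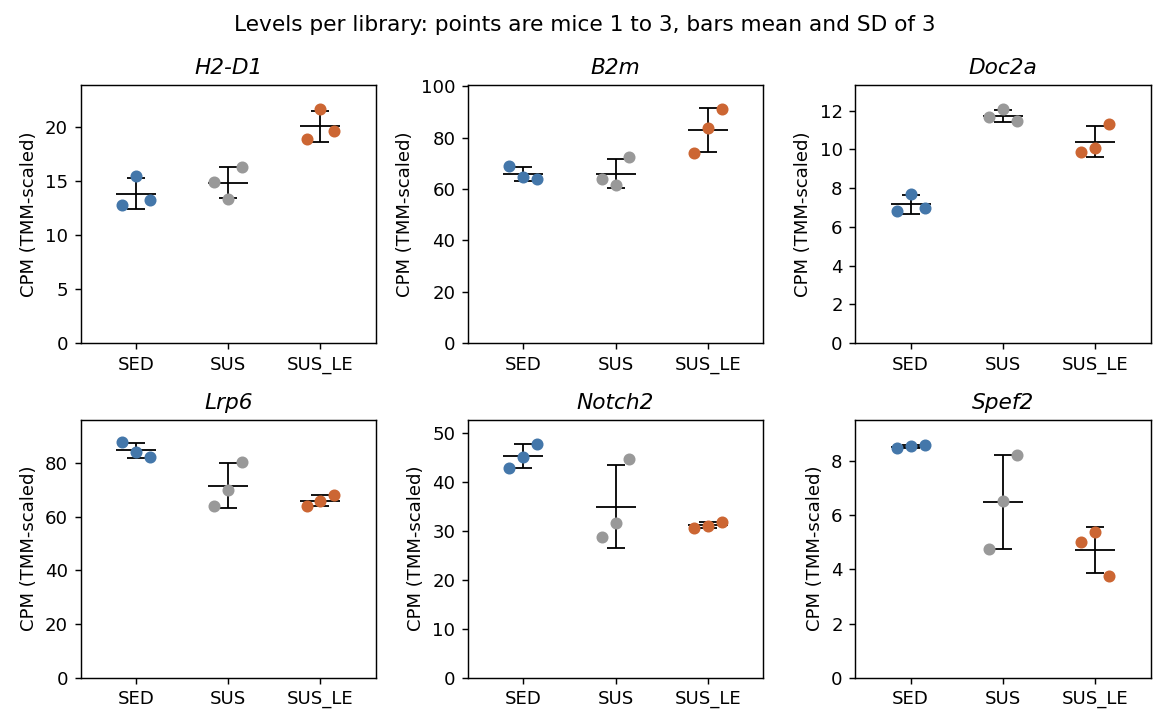
TMM-scaled CPM of 6 genes in the 9 libraries, with points for mice 1 to 3 of each group and bars for the mean and SD of 3. H2-D1, B2m and Doc2a lie higher in SUS_LE than in SED, and Lrp6, Notch2 and Spef2 lower, without overlap, while SUS lies near SED for the first pair, with SUS_LE for Doc2a and across both for the lower genes.

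Synaptic genes had small, mostly positive differences. Doc2a is a calcium sensor of spontaneous and asynchronous transmitter release. It stood at 9.86, 10.1 and 11.3 CPM in SUS_LE against 6.81, 7.71 and 6.96 in SED. Its log2 fold change was 0.54 ± 0.12 (adjusted p = 0.334), and it was called (6-library edgeR adjusted p = 0.038). Over the alternatives to the edgeR fit of all libraries, the adjusted p of Doc2a ran from 0.0341 to 0.964. The SUS mice stood at 11.7, 12.1 and 11.4, so both restrained groups lay above the sedentary one. Of 43 vesicle fusion genes, 36 had higher values, 13 without overlap (30.2%, against 7.54% of all genes), with a median of 0.07 that came to 0.04 without SED 1. Syn3, a synapsin of the vesicle surface, stood at 43.4, 42 and 46 CPM against 36.2, 37.7 and 38.5 (log2 fold change 0.22 ± 0.07, adjusted p = 0.498). Syt12, a synaptotagmin, stood at 18.6, 17.1 and 16.1 against 15.6, 11.7 and 15.7. Unc13b, a vesicle priming factor, went the other way, at 55.3, 53.3 and 56.8 against 59.3, 62.7 and 60.9 (log2 fold change −0.14 ± 0.07, adjusted p = 0.737).

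Of 17 GABA receptor genes, 13 had higher values and 4 lower, with 6 higher without overlap (35.3%, against 7.54% of all genes), at a median of 0.08. Gabrb2, a β subunit of the GABA-A receptor, stood at 300.2, 303 and 315 CPM in SUS_LE against 282, 284 and 282 in SED (log2 fold change 0.12 ± 0.05, adjusted p = 0.713). Gabra5, an α subunit enriched in hippocampus, stood at 182, 194 and 167 against 166, 154 and 167, so that SUS_LE 3 met the SED range. On the transmitter side, Gad1, which makes GABA, stood at 249, 266 and 261 CPM against 229, 240 and 232 (log2 fold change 0.15 ± 0.05, adjusted p = 0.63). Dlx2, a transcription factor of forebrain interneurons, stood at 4.86, 4.48 and 5.72 CPM against 3.3, 3.15 and 2.91 (log2 fold change 0.68 ± 0.18, adjusted p = 0.456). In CA1 and subiculum, 14 of 15 pyramidal markers had higher values at a median of 0.09, but only 1 was higher without overlap (6.67%, against 7.54% of all genes). Ccn3, a secreted matrix protein, was the 1 member called higher (against 0.108% of all genes), at 159, 182 and 190 CPM against 146, 153 and 153.

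The remaining leading genes with higher values came from several cell types. Ly6a, a surface protein of endothelium, stood at 11.8, 17.7 and 15 CPM in SUS_LE against 10.1, 10 and 9.06 in SED (log2 fold change 0.61 ± 0.15, adjusted p = 0.382). Vwf, the endothelial clotting factor, stood at 30.2, 38 and 29.1 against 21.7, 15.9 and 19.7 and at 19.8, 10.2 and 19.9 in SUS (log2 fold change 0.77 ± 0.26, adjusted p = 0.676). Both were called. Of 30 vascular genes 24 had higher values at a median of 0.11. The median was 0.07 without SUS_LE 3 and −0.03 with SUS_LE 2 as the only exercised library. The called members of this list, which does not hold Vwf, were Ly6a, higher, and Slco1c1, lower. Over all genes 0.108% were called higher and 1.41% lower. Slco1c1 had a log2 fold change of −0.48 ± 0.08 and an adjusted p of 0.00127 in the 6-library edgeR fit. Abcb1a, the drug efflux pump of the blood-brain barrier, stood at 43, 38.2 and 39.5 CPM against 32.6, 31.3 and 37.1, whereas Emcn, endomucin, stood lower at 3.63, 4.68 and 4.08 against 7.51, 5.19 and 4.73. Ccl27a, a chemokine, stood at 42.8, 44.4 and 49.8 CPM against 35, 37.3 and 38.8 (log2 fold change 0.30 ± 0.07, adjusted p = 0.372). Pbx3, a homeodomain transcription factor, stood at 9.58, 10.1 and 10.3 against 7.37, 7.22 and 6.69, and the SUS mice at 9.69, 10.3 and 9.32 lay with SUS_LE, as for Doc2a. Glmn, glomulin, stood at 14.1, 13.2 and 11.6 against 9.2, 9.95 and 9.8, and Fam110d at 1.57, 3.05 and 2.18 against 0.983, 0.42 and 1.22.

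Further called genes with higher values were neuronal, glial or secreted. Lancl1, a glutathione-binding protein of neurons, stood at 102, 109 and 109 CPM in SUS_LE against 94.8, 94.3 and 90.5 in SED. Vsnl1, a neuronal calcium sensor, stood at 627, 590 and 627 against 518, 566 and 532. Apod, an apolipoprotein of glia and vessel walls, stood at 169, 146 and 153 against 128, 123 and 132, and ranged from 85.6 to 140 in SUS. Omg, an oligodendrocyte glycoprotein that limits axon growth, stood at 118, 118 and 121 CPM against 101, 105 and 102. Mt1, a metallothionein induced by metals and glucocorticoids, stood at 221, 206 and 222 against 185, 199.9 and 179.6 (log2 fold change 0.20 ± 0.06, adjusted p = 0.456), and at 221, 209 and 200.3 in SUS. Of the called genes, LOC118568479, which has no assigned function here, had the smallest p among those higher in SUS_LE, at 19.9, 19.2 and 16.3 CPM against 12.4, 8.97 and 10.5. In SUS 1 to 3 LOC118568479 had 292, 195 and 161 counts, the reverse of the order of Ttr. Its counts were 291, 296 and 239 in SUS_LE and 176, 128 and 156 in SED. DESeq2 over 9 libraries called it too.

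Genes of protein synthesis and of the respiratory chain differed by small steps, mostly toward higher values. Cytosolic ribosomal protein genes had higher values in 73 of 80 cases, 34 without overlap (42.5%, against 7.54% of all genes), and 20 had an unadjusted p under 0.05 (25%, against 2.79%), all higher. The median was 0.07, and 0.03 with a choroid plexus score as a covariate. Rps7, a small-subunit protein, stood at 161, 164 and 166 CPM in SUS_LE against 146, 139 and 144 in SED (log2 fold change 0.19 ± 0.05, adjusted p = 0.456). Rps7 was called, and Rpl17 and Rps25 were not, at log2 fold changes of 0.18 and 0.19. In SUS the list score was 0.07, 0.02 and 0.03, against −0.05, −0.07 and −0.06 in SED and 0.03, −0.01 and 0.04 in SUS_LE. Ribosomal genes have many processed pseudogenes, so their reads can be shared.

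Of 13 mitochondrially encoded genes 12 had higher values, 7 without overlap (53.8%, against 7.54% of all genes), at a median of 0.10 that came to 0.04 without SUS_LE 3. CYTB, cytochrome b of complex III, stood at 14359, 14235 and 15233 CPM in SUS_LE against 13236, 13373 and 13558 in SED (log2 fold change 0.13 ± 0.06, adjusted p = 0.746). ATP6, a subunit of ATP synthase, stood at 16217, 15658 and 17175 against 15348, 14901 and 14929. Among nuclear genes of the respiratory chain 56 of 77 had higher values and 21 lower, 11 higher (14.3%, against 7.54% of all genes) and 4 lower (5.19%, against 8.64%) without overlap, at a median of 0.04 that came to 0.02 without SED 3. Atp5d, the δ subunit of ATP synthase, went against them, at 69.6, 70.7 and 73.8 CPM against 85.2, 82.5 and 77.7 (log2 fold change −0.20 ± 0.06, adjusted p = 0.516). Ndufb4c, named for a subunit of complex I, was called higher, at 15.5, 20.8 and 15.6 against 13.2, 10.5 and 11.6, but it has near-identical copies that could share its reads, which makes its own value uncertain. Ndufb4b had 83, 0 and 61 counts in SUS_LE and 45, 63 and 77 in SED. The sum of the pair was 310, 320 and 290 counts against 233, 213 and 248, and with Ndufb4 added 1025, 1021 and 1043 against 818, 875 and 892, without overlap in either case.

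**Figure D3:**
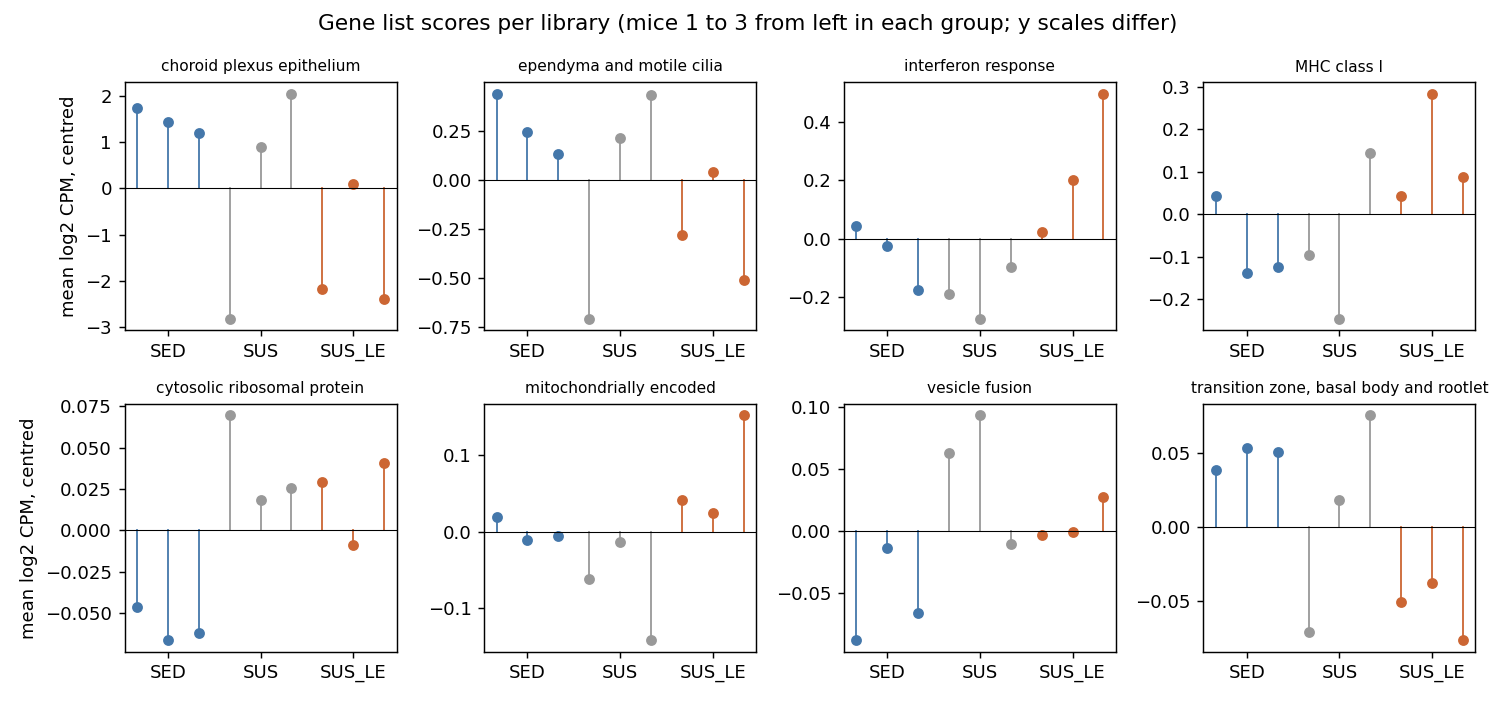
Mean log2 CPM of 8 gene lists in each library, centred over the 9 libraries, with mice 1 to 3 from left within SED (blue), SUS (grey) and SUS_LE (orange); y scales differ. Choroid plexus scores run from −2.82 to 2.04 across the SUS mice alone, and interferon scores are highest in SUS_LE 3 at 0.50.

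Genes with lower values in exercised stressed mice were led by receptors and matrix proteins of developmental signalling. Lrp6, the co-receptor for Wnt ligands, stood at 64.1, 65.7 and 68.1 CPM in SUS_LE against 87.8, 84.1 and 82.4 in SED (log2 fold change −0.36 ± 0.07, adjusted p = 0.317). It was called (6-library edgeR adjusted p = 0.000414) and kept that call without each of the 6 libraries in turn. Over the alternatives to the 9-library edgeR fit, the adjusted p of Lrp6 ran from 2.84e-05 to 0.964. Notch2, a receptor for Delta and Jagged ligands, stood at 30.7, 31.1 and 31.9 against 42.8, 45.2 and 47.8 (log2 fold change −0.54 ± 0.14, adjusted p = 0.456). Plxnb2, a semaphorin receptor, stood at 51.3, 59.7 and 53 CPM against 76.9, 76.4 and 76 (log2 fold change −0.48 ± 0.12, adjusted p = 0.46). In SUS these genes ran in the order of the mice's Ttr: Lrp6 at 64.1, 69.9 and 80.6, Notch2 at 28.7, 31.6 and 44.6, and Plxnb2 at 61.3, 65.8 and 88.1. Ltbp3, which holds latent TGF-β in the matrix, stood at 19, 19.8 and 19.5 against 27.8, 29.9 and 27.9. Hspg2, the basement membrane proteoglycan perlecan, stood at 19.8, 16.8 and 16.8 against 28.2, 28.5 and 29.7. All 5 were called lower by the 6-library edgeR fit and by DESeq2 over 9 libraries.

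Other leading lower genes encode transporters, cytoskeletal and membrane proteins. Slc7a10, an astrocytic neutral amino acid transporter, stood at 16.4, 17.8 and 18 CPM in SUS_LE against 26.2, 23.2 and 21.8 in SED (log2 fold change −0.44 ± 0.10, adjusted p = 0.334). Slc12a4, a potassium-chloride cotransporter, stood at 11, 12 and 9.73 against 18.5, 16.2 and 16.4 (log2 fold change −0.64 ± 0.14). In both transporter genes the highest exercised mouse lay below the lowest sedentary one. Myh14, a non-muscle myosin heavy chain, stood at 24.8, 28.3 and 27.8 CPM against 38.8, 35.7 and 32 (log2 fold change −0.39 ± 0.08, adjusted p = 0.317), and at 37.1, 36.2 and 38.9 in SUS. Ston2, an endocytic adaptor for synaptic vesicle proteins, stood at 38.3, 37.1 and 32.7 against 45.4, 45.2 and 46.8 (log2 fold change −0.35 ± 0.07). For Myh14 the SUS mice lay with SED and showed no spread along Ttr. Emp2, an epithelial membrane protein, stood at 17.5, 16.2 and 16.3 against 21.6, 23.8 and 22. Serhl, a serine hydrolase-like gene with the smallest p of all, stood at 1.64, 2.08 and 2.04 CPM against 3.79, 4.42 and 4.53 (log2 fold change −1.14 ± 0.21, adjusted p = 0.317), and at 3.16, 3.75 and 3.91 in SUS. Nwd1 stood at 65.4, 66.6 and 67.8 against 81, 87.8 and 77.9, and the transcript 5930403L14Rik at 20.4, 19.4 and 23.1 against 34.4, 31.1 and 29.6. In SUS 1 to 3, Slc7a10 (311, 360 and 386 counts), Slc12a4 (179, 189 and 265) and Emp2 (260, 266 and 326) ran in the order of Ttr. So did Serhl and 5930403L14Rik, the latter at 23, 26.1 and 32.6 CPM. Ston2 (574, 568 and 630 counts) and Nwd1 (1016, 1122 and 1120), like Myh14, did not. Each gene of this paragraph was called lower.

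The 222 genes called lower shared a pattern across the 3 SUS mice, whose libraries took no part in calling them. In 191 of them (86%) the SUS mice ran in the order of their Ttr level, SUS 1 below SUS 2 below SUS 3, against 18.6% of all tested genes. SUS 3 lay above SUS 1 in 215 (96.8%), against 49.2% of all genes. Centred on each gene's mean over the 9 libraries, the median was −0.42, 0.04 and 0.50 in SUS 1 to 3, 0.40, 0.29 and 0.21 in SED 1 to 3, and −0.37, −0.20 and −0.35 in SUS_LE 1 to 3. The medians of SUS 1 and SUS 3, mice given the same restraint, thus lay farther apart than that of any SED mouse from any SUS_LE mouse. Of the 17 genes called higher, 2 (11.8%) followed that order, against 18.6% of all tested genes. The reverse order, SUS 1 above SUS 2 above SUS 3, held in 3 of the 17 (17.6%), against 18% of all tested genes. The SUS medians of the 17 were −0.08, 0.00 and 0.01. With the choroid plexus score as a covariate in the 6-library fit, 7 genes were called, 5 higher and 2 lower, and 2 of them, Vwf and Ndufb4c, were among the 239. The other 5 were Ndufb4b and Bgn, lower, and the interferon-induced GTPases Gbp4, Igtp and Tgtp2, higher, whose counts of 208, 119 and 109 in SUS_LE 2 stood against at most 66, 55 and 24 in SUS_LE 1 and 3. The score itself did not overlap between the groups, at 1.20 to 1.73 in SED and −2.39 to 0.09 in SUS_LE. Choroid plexus content and group therefore cannot be told apart for the lower or the higher genes.

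**Figure D4:**
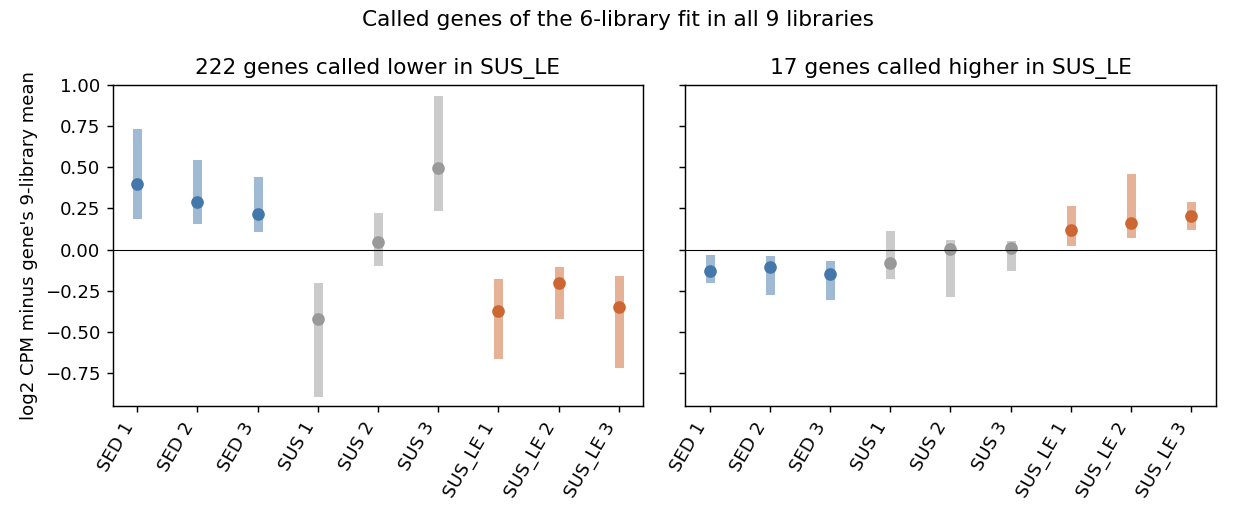
Log2 CPM minus each gene's 9-library mean for the genes called in the 6-library fit, with dots for the median and bars for the middle 50% of genes, in each library. The 222 genes called lower (left) run from a median of −0.42 in SUS 1 to 0.50 in SUS 3, and the 17 called higher (right) stay within −0.08 to 0.01 in SUS.

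Cdr2, an onconeural antigen and the gene with the smallest p in the 6-library fit, shows this pattern at 5.89, 6.3 and 4.7 CPM in SUS_LE, 20.2, 18.6 and 16.1 in SED and 5.29, 12.9 and 23.5 in SUS (log2 fold change −1.70 ± 0.52, adjusted p = 0.657). Igf2, a growth factor secreted by choroid plexus and meninges, stood at 130, 123 and 142 against 268, 240 and 220, and at 125, 146 and 366 in SUS. Igfbp2, a binding protein of that factor, stood at 16.8, 19.6 and 15.7 against 43.4, 35.6 and 32.6. Both belong to the meningeal fibroblast list, 14 of whose 20 members nevertheless had higher values. Brwd3, a bromodomain protein, stood at 23.4, 25.3 and 22.9 CPM against 38.8, 34.4 and 35.3, and Fxyd1, a regulator of the sodium pump, at 22.2, 22.4 and 17.9 against 33.4, 31 and 30.6. Scube3, a secreted signalling protein, stood at 0.958, 2.73 and 1.23 against 5.9, 4.98 and 4.33. All 6 genes of this paragraph were called, and Brwd3, Fxyd1 and Scube3 were also called by DESeq2 over 9 libraries.

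Choroid plexus genes themselves had lower values in SUS_LE in 20 of 20 cases, at a median log2 fold change of −2.51. All were without overlap (100%, against 8.64% of all genes). Steap1 was the 1 member of the 20 called lower, against 1.41% of all genes. The median was −3.92 without SUS_LE 2, and −0.06 with the list's own score as a covariate. The summed level was 303.7 to 2438 CPM in SUS_LE against 4709 to 6815 in SED. Ttr had a log2 fold change of −2.71 (SE 1.88, edgeR adjusted p = 0.848). Ace, angiotensin-converting enzyme, made by choroid plexus and by vessels, stood at 19.6, 35.3 and 21.2 CPM against 91.8, 79.6 and 70.6 (log2 fold change −1.67 ± 0.62, adjusted p = 0.72). Prlr, the prolactin receptor, stood at 5.34, 23.2 and 5.99 against 77, 74.6 and 58.1. Kcnj13, an apical potassium channel, stood at 4.24, 16.6 and 6.33 against 62.6, 49.3 and 46.1, and Steap1, a metalloreductase, at 0.205, 1.17 and 0.34 against 5.83, 5.12 and 4.33. SUS_LE 2 was the highest exercised mouse for each of these genes and still below every SED mouse.

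Ependymal and motile cilia genes went the same way, with 33 of 40 lower at a median of −0.40. Of these, 19 did not overlap (47.5%, against 8.64% of all genes) and 6 were called lower (against 1.41% of all genes). Spef2, a central-pair protein of motile cilia that the list does not hold, stood at 5, 5.39 and 3.74 CPM in SUS_LE against 8.5, 8.55 and 8.58 in SED (log2 fold change −0.86 ± 0.19, adjusted p = 0.334). Tekt1, a tektin of the axoneme, stood at 1.37, 2.4 and 1.97 against 5.97, 4.91 and 4.33, and Spag16, another central-pair protein, at 1.64, 2.27 and 1.09 against 6.11, 4.42 and 4.12. All 3 were called. Cfap52, an axonemal microtubule protein, stood at 1.16, 1.62 and 1.29 CPM against 3.09, 3.5 and 2.03, and Rsph4a, a radial spoke head protein, at 6.3, 8.31 and 6.26 against 10.5, 10.4 and 9.6. Cep126, a centrosomal protein needed for cilium formation and also outside the list, stood at 15.7, 15.7 and 14.8 against 22.1, 20.4 and 19.9 (log2 fold change −0.43 ± 0.10, adjusted p = 0.334), and was called. The list score in SUS followed Ttr, at −0.71, 0.21 and 0.43, and with the choroid plexus score as a covariate the list median was 0.10.

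Primary cilia, the single sensory antennae of neurons and astrocytes, gave smaller differences. Of 51 genes of the transition zone, basal body and rootlet, 39 had lower values, 11 without overlap (21.6%, against 8.64% of all genes), at a median of −0.05 that came to −0.01 with the choroid plexus score as a covariate. Cep250, a linker of centrioles, stood at 48.5, 46 and 44.7 CPM in SUS_LE against 57.4, 52.2 and 55.6 in SED (log2 fold change −0.25 ± 0.07, adjusted p = 0.456). Tmem237, a transition zone membrane protein, stood at 18.5, 21.5 and 20.5 against 32.2, 28 and 25.8 and at 18.4, 25.6 and 33.4 in SUS (log2 fold change −0.51 ± 0.20, adjusted p = 0.722). Cep250 and Tmem237 were the called members, 2 of 51, against 1.41% of all genes called lower. Crocc, rootletin, stood at 58.2, 57 and 64.9 against 72, 65.7 and 71 and at 81, 81 and 71.6 in SUS (log2 fold change −0.21 ± 0.07, adjusted p = 0.566). Intraflagellar transport genes split 17 higher and 27 lower, and membrane signalling genes of the cilium 17 and 22, with none called. Ift46 stood at 29, 32.2 and 31.6 against 37.4, 33.6 and 35, Ift52 at 19.8, 18.2 and 19.9 against 21.5, 23.9 and 20.5, and Ift88 overlapped, at 19.4, 20.5 and 20.4 against 19.8, 17.9 and 17.6. Tulp3, which delivers receptors into the cilium, stood at 14.4, 13.9 and 12.8 CPM against 15.9, 15.8 and 18.1, and Ptch1, the Hedgehog receptor, at 43.6, 45.9 and 43.8 against 48.4, 55.4 and 47.5. Arl13b, a ciliary GTPase, and Adcy3, the neuronal ciliary adenylyl cyclase, overlapped between groups, at 8.49, 8.38 and 8.65 against 8.43, 10.2 and 7.77 and at 45.4, 43.8 and 46 against 44.2, 46 and 47.2.

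Genes of the glucocorticoid response, which restraint is known to engage, had higher values in 23 of 29 cases, 6 without overlap (20.7%, against 7.54% of all genes), and 8 had an unadjusted p under 0.05 (27.6%, against 2.79%), none in the other direction. The median was 0.09, and 0.05 without SUS_LE 2. Klf9, a receptor-induced transcription factor, stood at 218, 215 and 211 CPM in SUS_LE against 197, 200.4 and 197 in SED (log2 fold change 0.12 ± 0.05, adjusted p = 0.713). Fam107a, an actin-binding protein induced by glucocorticoids, stood at 347, 420 and 370 against 358, 335 and 329, and Sult1a1, a sulfotransferase, at 8.9, 7.41 and 10.5 against 6.6, 7.92 and 5.27, each with an overlap. The receptor Nr3c1 stood at 88.8, 87.3 and 85.4 CPM against 79.6, 93.5 and 88.2, and Fkbp5, its co-chaperone, at 45.2, 49.3 and 33.7 against 44, 36.2 and 39.7, with the exercised mice at both ends. Ciart, a clock repressor, stood at 8.21, 6.89 and 7.35 against 5.69, 5.47 and 4.8 (log2 fold change 0.49 ± 0.16, adjusted p = 0.57), and Dbp, a clock output factor, at 46.2, 31.9 and 38.8 against 32.5, 30.5 and 32.4. Of 21 clock genes 17 had higher values and none was called. The time of dissection is not given in the sources used here.

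The score of the immediate early gene list overlapped between groups, at −0.12 to 0.09 in SUS_LE and −0.12 to −0.03 in SED. Of 34 genes 22 had higher values, at a median of 0.10. Without overlap, 3 were higher (8.82%, against 7.54% of all genes) and 2 lower (5.88%, against 8.64%). At an edgeR unadjusted p under 0.05, 4 were higher (11.8%, against 2.79%) and 0 lower (against 3.86%). The median came to 0.00 without SUS_LE 3, 0.05 without SUS_LE 2 and 0.15 without SUS_LE 1. Fosb, a slowly accumulating Fos family factor, stood at 6.02, 8.64 and 9.26 CPM in SUS_LE against 5.2, 5.82 and 6.01 in SED (log2 fold change 0.49 ± 0.17, adjusted p = 0.633), and Ptgs2, the inducible cyclooxygenase, at 26.9, 27.7 and 23.5 against 23.2, 19.6 and 22.6. Fos stood at 5, 5.39 and 6.19 against 5.06, 7.01 and 8.45, Arc at 42, 49.2 and 40.5 against 36.3, 37.7 and 42.3, and Npas4 at 15, 13.3 and 21.7 against 13.2, 15.5 and 11. Bdnf, the neurotrophin most often linked to running, stood at 35.4, 38.5 and 36.6 CPM against 37.2, 29.8 and 34.4 (log2 fold change 0.12 ± 0.08, adjusted p = 0.831). All 4 of these overlapped between groups.

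Differences in glial genes were small. Gfap, the intermediate filament of astrocytes, stood at 244, 229 and 233 CPM in SUS_LE against 216, 208 and 223 in SED (log2 fold change 0.13 ± 0.07, adjusted p = 0.774), and Aqp4, the astrocytic water channel, at 162, 157 and 174 against 148, 165 and 168. Aldoc, astrocytic aldolase, stood at 460, 457 and 456 against 415, 437 and 407, and Ntsr2, a neurotensin receptor of astrocytes, at 97.2, 94.5 and 96.9 against 84.1, 90.3 and 88, both without overlap. Of 25 astrocyte genes 18 had higher values, and none was called. Myelin genes were lower in 19 of 24 cases, at a median of −0.05 that came to 0.00 without SUS_LE 3, −0.14 without SUS_LE 1 and −0.08 without SED 1. Trf, transferrin, was the 1 member called lower (against 1.41% of all genes), at 113, 108 and 102 CPM against 125, 124 and 127 (log2 fold change −0.22 ± 0.06, adjusted p = 0.456). Ugt8a, which makes the myelin lipid galactosylceramide, stood at 39.6, 40.9 and 40.4 against 46.1, 45 and 46.2. Mbp, a main myelin protein, stood at 1267, 1143 and 984 against 1165, 1293 and 1220, and Mal at 122, 113 and 110 against 109, 111 and 103, each with overlap. Acap2, an Arf6 regulator, stood at 177, 178 and 171 CPM in SUS_LE and 178, 163 and 178 in SED, and lower at 136, 143 and 138 in SUS.

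Of the 44 lists 32 had a median above that of all genes, and the scores of single libraries did not overlap between SUS_LE and SED in 13 lists higher and 4 lower. The lists hold 29 of the 239 called genes, 20 lower and 9 higher. Over all tested genes 1.52% were called, 1.41% lower and 0.108% higher. The lists name 1354 members counted with repeats, so the called share of their distinct genes is not given.

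**Figure D5:**
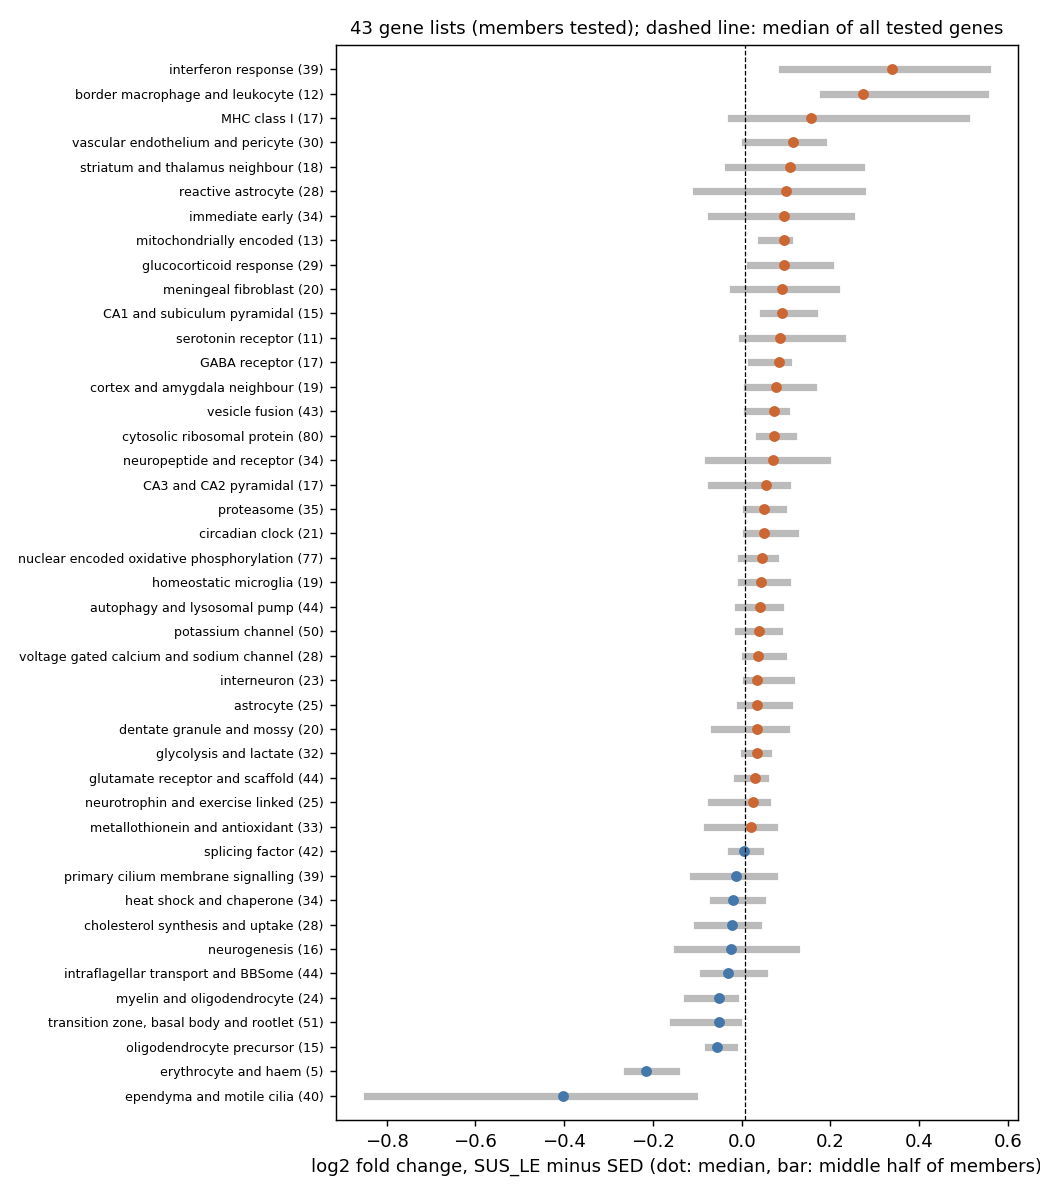
Median log2 fold change (dot) and middle 50% of members (bar) of 43 gene lists between SUS_LE and SED, with the number of tested members in brackets and a dashed line at the all-gene median of 0.01. The choroid plexus list, at −2.51, is left off the axis, and interferon genes lie farthest to the right at 0.34.

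Some calls rest on reads that neighbouring or copied genes share. Chtf8, a sister chromatid cohesion factor, had the smallest DESeq2 adjusted p over 9 libraries, with 491, 500 and 94 counts in SED 1 to 3 and 0, 0 and 0 in SUS_LE, where a count of 0 allows up to 3. Derpc, an overlapping gene at the same locus, had 6, 0 and 459 counts in SED and 531, 534 and 506 in SUS_LE. Their sum was 497, 500 and 553 in SED and 531, 534 and 506 in SUS_LE, so what differs is the division of reads between the pair, and the Chtf8 value is uncertain. H2ac18, a histone H2A gene with a near-identical neighbour, stood at 0.479, 1.82 and 0.953 CPM in SUS_LE against 4.7, 5.75 and 3.38 in SED (log2 fold change −2.07 ± 0.40, adjusted p = 0.334). The neighbour H2ac19 had 157, 186 and 164 counts against 196, 160 and 150, and the sum of the pair was 164, 214 and 178 in SUS_LE against 263 and 242 in SED 1 and 2, with SED 3 below SUS_LE 2, so the summed counts overlapped between groups. How the reads were divided between the copies is not known, and the H2ac18 value is uncertain.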

How the data were processed

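Total RNA from ventral hippocampus of 9 mice was sequenced after RNAiso Plus extraction and CORALL RNA-seq V2 library preparation, per the labels' protocols. Reads went through fastp, STAR and Salmon on GRCm39 in the hands of the authors, per the submitters' processing notes; versions, annotation, strand setting and use of molecular identifiers are not given in the sources used here. The deposited values are whole-number counts per gene symbol for 40213 genes, not normalized; whether they were rounded from Salmon estimates is not given. The labels' numbers 1 to 3 are used for exercised mice, whose column headers are numbered otherwise. No column was left unused.

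Genes were kept by edgeR's expression filter (16106, holding 99.88% of counts) and libraries scaled by TMM factors. The edgeR 4.0.16 quasi-likelihood test with its robust step took all 9 libraries and group as the sole term (R 4.3.3), the contrast was SUS_LE minus SED, and p-values were adjusted by Benjamini-Hochberg over all tested genes at 0.05. DESeq2 1.42.0 (6 genes had no adjusted p) and limma 3.58.1 voom with quality weights were alternatives, as were other scalings and filters, the 6 libraries alone, replicate number as a block, no robust step and leaving out each library. The alternatives applied to the 6-library fit were chosen after seeing the data. In the 9-library fit, the choroid plexus score and leaving out the 3 libraries lowest in Ttr also rest on levels seen in these data. Log2 CPM used a prior count of 2. Same-numbered mice of the 2 groups did not deviate together (correlations −0.026, −0.002 and 0.036), so numbers were not taken as pairs. Libraries of a group differed by more than counting noise (chi-square over degrees of freedom 2.77 to 15.5), so each counts as 1 sample. GC content and length came from GENCODE M21, matched by symbol for 91.25% of tested genes.

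The comparison, the 44 gene lists and the named genes were chosen with earlier results of these data known. Named were the 12 genes with the smallest p in each direction with mean log2 CPM above 0, up to 4 members with the smallest p of each list described, and a panel of 18 genes of cilia, glia, stress and activity. The smallest p of an exact permutation test on 3 against 3 mice is 0.1, so none is given. A gene with 0 counts in a library of this depth has an upper 95% limit of 3 counts, for counting error only. Some items that the naming rule would include are not reported here.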

Additional observations from a re-analysis of the deposited data

How the results depend on the processing

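The count of genes past an adjusted p of 0.05 over 9 libraries was 0, as it was with limma voom, RLE, upper-quartile and total-count scaling, the stricter filter, GC and length trends removed and a replicate block (smallest adjusted p 0.0639). It was 16 with DESeq2, with or without independent filtering, 218 without a filter on low counts, 239 with SUS_LE and SED alone, 1 without the robust step, 2 with the choroid plexus score as a covariate and 16 without the 3 libraries lowest in Ttr (11 higher, 5 lower, with 1 exercised library left, assumed to vary like the others). Leaving out 1 library gave 0 to 69. The count under an unadjusted p of 0.05 was 1622 with limma voom, 1669 without a filter and 1602 with the 6 libraries. Total-count scaling split these genes into 274 higher and 789 lower, the choroid plexus score into 554 and 503, and GC and length correction into 605 and 543. The 6-library count of 239 was 7 with the choroid plexus score, 148 with a replicate block, 463 without a filter and 93 to 342 without 1 library; the cause of these differences was not tested.

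Signs reversed for 8 genes, most of them near 0; Ttr and Rsph4a reversed only with the choroid plexus score. Nr3c1 was −0.0024 with DESeq2 and RLE, −0.0212 with total counts, −0.0025 without a filter, −0.0018 in 6 libraries and −0.0601 to 0.0543 without 1 library. Acap2 was −0.0051 with total counts and −0.0258 to 0.0398 without 1 library. With the choroid plexus score Ttr was 0.85, Rsph4a 0.0063 and Arl13b 0.12, and Arl13b ran from −0.13 to 0.0705 without 1 library. Aqp4 was −0.0296 without the 3 libraries lowest in Ttr and −0.0185 to 0.0698 without 1, Adcy3 was 0.0159 with GC and length trends removed, and Fkbp5 ran from −0.0193 to 0.2418 without 1 library. Every other gene given with a log2 fold change kept its sign under every alternative tried.

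The design sets 3 mice against 3; genes near 1 CPM rest on few counts at this depth, and their differences carry the widest errors.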
